A study of Mus musculus with 14 samples.

Results

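Hepatic mRNA of 8 transcription factors that define the hepatocyte was followed through bile diversion and gastric bypass. The genes were Hnf4a, Foxa1, Foxa2, Foxa3, Cebpa, Cebpb, Onecut1 and Prox1. They were chosen by symbol, with earlier results of these data known, and all 8 were found among the 25212 genes of the count table. Livers came from male C57BL/6 mice without any transgene, fed a high-fat diet (HFD, 60% of kcal from fat) from 6 weeks of age for 12 weeks before they were allocated to a group. The groups were 5 diet-induced obese mice without surgery (DIO), 4 mice with the gallbladder joined to the ileum and the common bile duct ligated (GB-IL), and 5 mice that underwent a Roux-en-Y bypass of the stomach (RYGB). All 3 groups stayed on the HFD, the labels place each liver at 8 weeks, and each liver gave 1 library. The DIO mice had no operation, so the effect of an operation as such cannot be told apart from that of either diversion.

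Hepatocyte identity rests on a small network of DNA-binding proteins that switch on each other's genes and the genes of liver function. HNF4A, a nuclear receptor, and C/EBPα hold the adult programme of plasma protein, lipid and glucose genes. The FOXA proteins are pioneer factors that open chromatin for the others. ONECUT1 (HNF6) and PROX1 act in liver and bile duct development and remain in the adult liver, and C/EBPβ is the family member known from the acute phase response and regeneration. In whole tissue RNA, fewer cells of a type and less RNA per cell cannot be told apart.

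The 14 libraries held 18223135 to 28656631 counts, and levels are given as CPM, counts relative to the library total scaled by edgeR's trimmed mean of M-values. The livers of the GB-IL group were spread widely. A principal component analysis placed 50.8% of the variance on its first axis, where GB-IL liver 1 was at 107, liver 2 at 86.2 and liver 3 at 16.1. GB-IL liver 4 was at -29.0, among the DIO livers (-36.4 to -16.7). The summed level of 12 hepatocyte markers, all detected, was 131023 to 165819 CPM in DIO, 112070 to 153151 CPM in GB-IL and 131822 to 153185 CPM in RYGB, so the tissue carried its labelled identity in every liver. Among the other markers, the sum of 10 cholangiocyte genes was 71.1 to 342 CPM in GB-IL against 46.1 to 78.9 CPM in DIO. Spp1 alone made up 49.5 to 286 CPM of it in GB-IL and 25.1 to 55.3 CPM in DIO. The sum of the macrophage genes was 953 to 2755 CPM in GB-IL against 517 to 919 CPM in DIO. GB-IL liver 1 also carried 1792 CPM of pancreatic acinar genes, against at most 38.8 CPM in any other liver.

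None of the 8 genes passed the false discovery rate (FDR) of 0.05 in any of the 3 comparisons (quasi-likelihood test of edgeR, p-values adjusted after Benjamini and Hochberg over the 14252 genes tested). All 8 genes passed the filter on low counts. They were chosen with earlier results of these data known, so their counts beside shares of all tested genes are a description only. For GB-IL against DIO, 465 of the tested genes (3.26%) were past the FDR. That count was 0 without GB-IL liver 1, without GB-IL liver 2 and without each of the 5 DIO livers in turn. In that comparison 4 of the 8 had an unadjusted p below 0.05, all with a lower mean in GB-IL (Onecut1, Foxa1, Foxa2 and Cebpa), against 23.1% of all tested genes in either direction and 6.43% in the lower direction. For RYGB against DIO the FDR took 0% of the tested genes, and 1 of the 8 (Onecut1, lower in RYGB) had an unadjusted p below 0.05, against 8.71% of all tested genes in either direction and 3.36% in the lower one. None of the 8 separated RYGB from DIO without overlap, which 3.53% of all tested genes did. For GB-IL against RYGB the FDR also took 0%, and 2 of the 8 (Cebpb higher and Foxa2 lower in GB-IL) had an unadjusted p below 0.05, against 22.1% of all tested genes in either direction, 15.3% in the higher and 6.77% in the lower one. Other tools called some of them. On simulated counts for GB-IL against DIO, DESeq2 and edgeR's exact test each recovered 177 of 200 changed genes, with 26 and 18 false calls. The quasi-likelihood test recovered 163, with 4 false calls. Each simulated group had 1 mean per gene, unlike the GB-IL livers here, so these counts cannot tell which tool suits the 8 genes. DESeq2 and edgeR's exact test each put 3 of the 8 past the FDR for GB-IL against DIO (Foxa1, Foxa2 and Onecut1, 9.07% and 7.92% of all tested genes), and each put Cebpb past it for GB-IL against RYGB (5.93% and 4.78% of all). Limma's voom with sample quality weights called none of the 8 in the GB-IL comparisons, and called Cebpb for RYGB against DIO (log2 fold change -0.76, adjusted p = 0.0488, among 11.9% of all tested genes). Leaving out GB-IL liver 4 put 5 of the 8 past the FDR against DIO (24.6% of all tested genes) and 1 against RYGB (21.5%), and leaving out GB-IL liver 3 put 1 past it against DIO (3.99%). Over all tested genes, DESeq2, the exact test and voom called 9.07%, 7.92% and 4.13% for GB-IL against DIO, 0.681%, 0.309% and 11.9% for RYGB against DIO, and 5.93%, 4.78% and 0.807% for GB-IL against RYGB. Scaling by the hepatocyte markers put Cebpb past it against RYGB (5.02%).

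**Figure D1:**
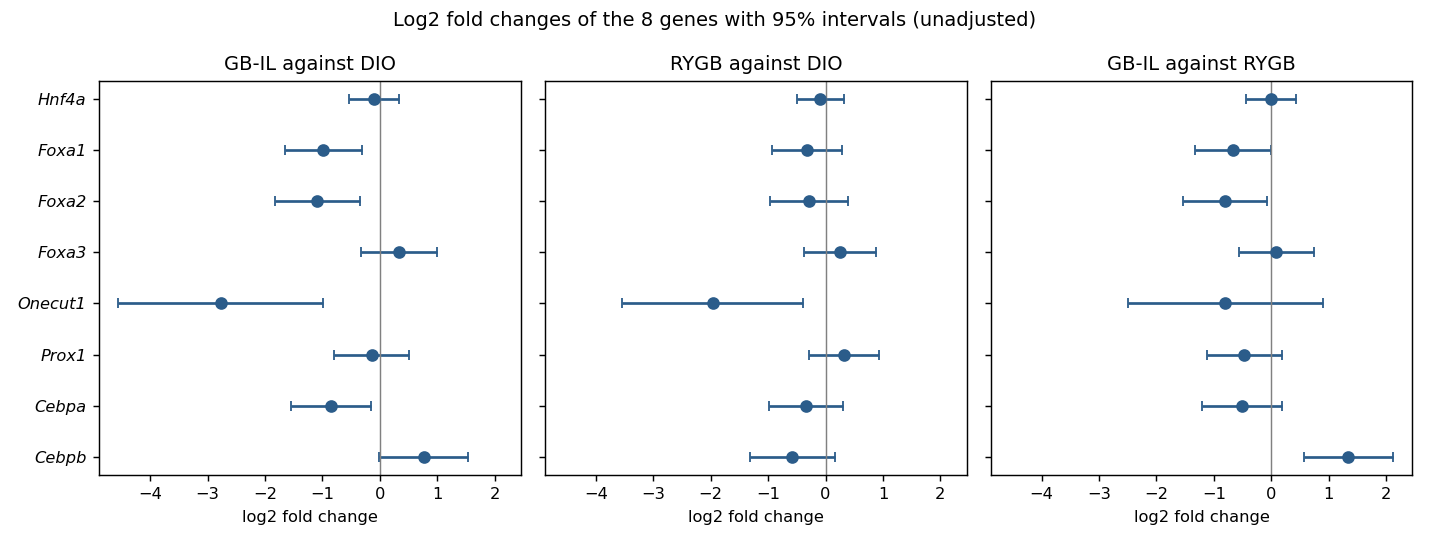
Log2 fold change (horizontal axis) of each of the 8 genes (vertical axis) in the 3 comparisons, with points at the edgeR estimate and bars for its unadjusted 95% interval. The interval of Hnf4a lies around 0 in every panel (-0.54 to 0.34 for GB-IL against DIO), whereas that of Onecut1 is the widest of the 8 (-4.55 to -0.99 in the same comparison).

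Across the 8 genes the median log2 fold change was -0.50 in GB-IL and -0.30 in RYGB relative to DIO, and -0.49 in GB-IL relative to RYGB. The medians over all tested genes were 0.04, 0.01 and 0.03. In each comparison 6 of the 8 had a lower and 2 a higher mean in the first group, where 53.1%, 51.5% and 52.5% of all tested genes had a higher one. The comparisons share groups, so these values are not independent of each other.

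Set against transcript length, the 8 genes spanned a wide range of levels. In DIO livers Hnf4a stood at 144 ± 27.4 CPM per kb of exon (SD, n = 5) and Cebpa at 132 ± 14.6, which did not differ beyond their spread. Cebpb followed at 40.4 ± 15.0 and Foxa3 at 24.9 ± 8.03, with overlapping ranges. Foxa2 (11.3 ± 4.82) and Prox1 (11.2 ± 3.39) had nearly the same level, and Foxa1 (4.63 ± 2.54) and Onecut1 (2.33 ± 3.25) were the lowest, again with overlapping ranges. The lowest Cebpa value in DIO, 118 CPM per kb, lay above the highest Cebpb value, 51.3 CPM per kb, and this was the only step in the order of the DIO group at which neighbouring genes did not overlap.

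The sequences just before the start sites are shown for the 4 genes whose levels are described most closely below, in the 250 bases upstream of the first annotated RefSeq start on GRCm38.p6, written along the gene's own strand. All 8 genes matched a RefSeq promoter. Capitals mark matches to the letters searched on both strands. The Foxa2 window is chr2:148046970-148047219 (minus strand), the Cebpa window chr7:35119043-35119292 (plus), the Cebpb window chr2:167688665-167688914 (plus) and the Onecut1 window chr9:74861671-74861920 (plus).
Foxa2: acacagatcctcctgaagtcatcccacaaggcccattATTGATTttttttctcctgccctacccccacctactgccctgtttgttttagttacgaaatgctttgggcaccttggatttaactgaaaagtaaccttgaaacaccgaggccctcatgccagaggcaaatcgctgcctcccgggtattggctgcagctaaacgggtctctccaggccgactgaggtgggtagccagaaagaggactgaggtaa
Cebpa: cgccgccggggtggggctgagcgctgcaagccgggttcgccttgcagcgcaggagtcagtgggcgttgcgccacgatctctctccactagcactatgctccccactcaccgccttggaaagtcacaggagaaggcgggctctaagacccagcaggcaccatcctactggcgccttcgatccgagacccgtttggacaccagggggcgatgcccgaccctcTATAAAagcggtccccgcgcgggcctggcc
Cebpb: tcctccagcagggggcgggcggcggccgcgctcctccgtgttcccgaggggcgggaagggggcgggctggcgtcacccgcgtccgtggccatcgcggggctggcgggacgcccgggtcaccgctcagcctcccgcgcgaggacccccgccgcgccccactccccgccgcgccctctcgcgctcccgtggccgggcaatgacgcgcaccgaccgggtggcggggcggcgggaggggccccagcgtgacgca
Onecut1: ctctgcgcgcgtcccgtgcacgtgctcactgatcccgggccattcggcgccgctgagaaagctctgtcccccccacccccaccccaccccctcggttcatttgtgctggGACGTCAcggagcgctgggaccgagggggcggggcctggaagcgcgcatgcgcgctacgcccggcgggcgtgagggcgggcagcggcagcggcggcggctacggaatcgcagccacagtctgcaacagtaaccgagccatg

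Each string was sought on both strands in the same window of 32851 RefSeq promoters. FOXA was sought as TGTTTAC, which 3.17% of those windows held. Its variant spelling TATTTAC was present in 2.73% of them. HNF4A was sought as CAAAGTC, present in 3.84% of all windows. For C/EBP proteins the string was TTGCGCA, present in 1.69% of all windows. The ONECUT string was ATTGATT. The TATA box was read as TATAAA and the cyclic AMP response element was read as TGACGTC. No matches overlapped in the printed windows. Foxa2 has 3 annotated starts, of which the first is shown. That window held 1 ONECUT match starting 213 bases before the start, a string found in 2.62% of all windows. The windows of its other starts held no ONECUT match, and that of the third held a TATA match on the opposite strand. The Cebpa window held a TATA box 30 bases before the start, found in 12.4% of windows. The Onecut1 window held 1 TGACGTC match, on the opposite strand, 141 bases before the start, found in 2.78% of windows. The Cebpb window, 81.6% G and C, held none of these letter strings. The first annotated window of each of the other 4 genes also held 1 match. It was an ONECUT match 60 bases before the start of Hnf4a and a FOXA match 141 bases before that of Foxa1, both on the opposite strand, and a TATA match 36 bases before the start of Foxa3 and, on the opposite strand, 34 bases before that of Prox1. These matches are letter strings, and nothing was measured at them.

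Hnf4a, the nuclear receptor at the centre of the network, had the smallest fold change of the 8 in all 3 comparisons (Ensembl ENSMUSG00000017950, chromosome 2, 163506808 to 163572910, plus strand). It stood at 706, 604, 522, 803 and 837 CPM in DIO livers 1 to 5, at 764, 632, 614 and 585 CPM in GB-IL livers 1 to 4, and at 576, 595, 694, 845 and 545 CPM in RYGB livers 1 to 5. All 3 groups overlapped, and the 4 GB-IL values lay within the DIO range. The log2 fold change was -0.10 (SE 0.206) for GB-IL against DIO with an adjusted p of 0.782 (edgeR) and a 95% interval of -0.54 to 0.34, and -0.09 (-0.51 to 0.32) for RYGB against DIO. For GB-IL against RYGB it was -0.01 (-0.44 to 0.43), a value whose sign turned with the scaling of the libraries. The antisense transcript Hnf4aos shares no exon base with Hnf4a in the annotation.

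**Figure D2:**
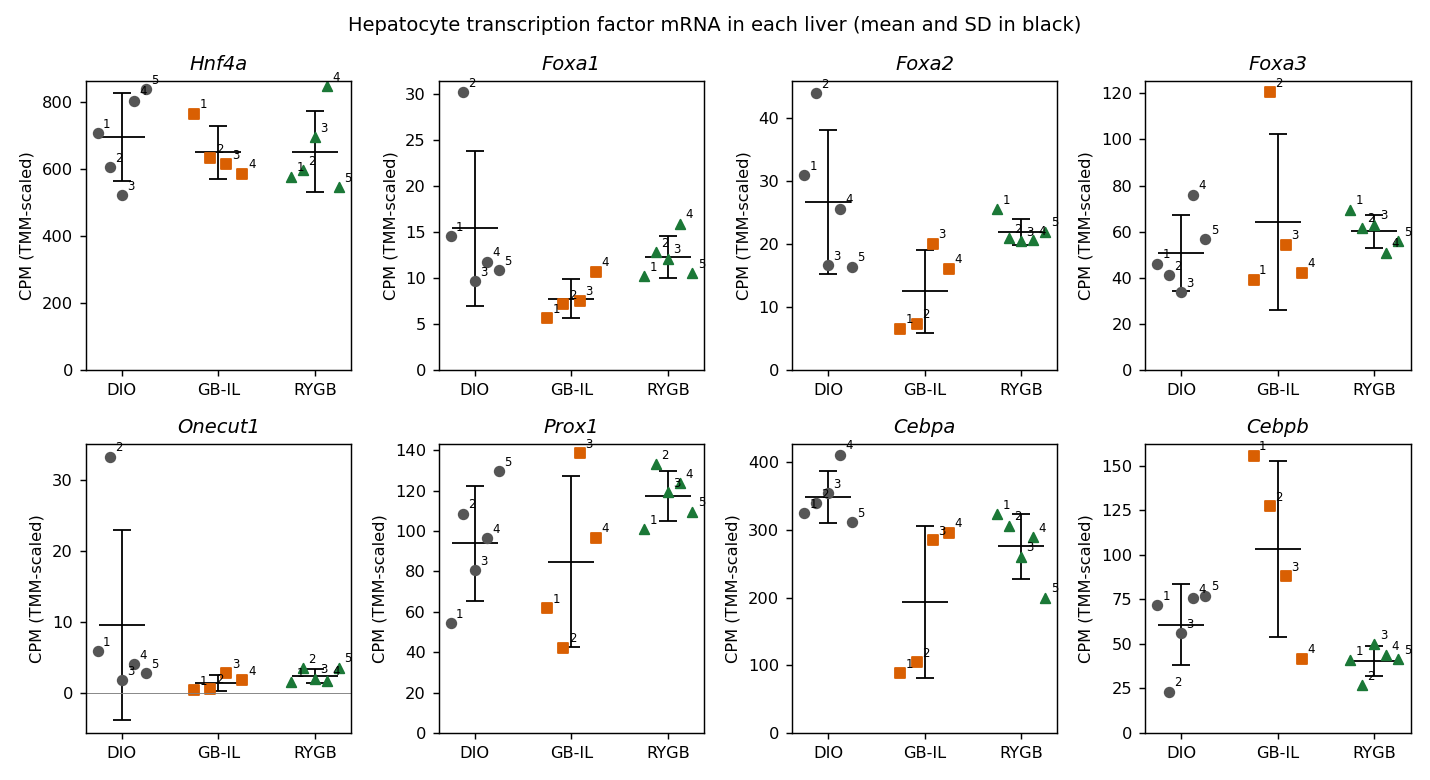
Level of each gene in each liver (vertical axis, CPM scaled by the trimmed mean of M-values, linear), by group (horizontal axis), with liver numbers beside the points and the group mean and SD in black. Cebpa in GB-IL livers 1 and 2 (88.2 and 105 CPM) lies below every other liver, and the DIO mean of Onecut1 is carried by DIO liver 2 (33.3 CPM).

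Cebpa encodes C/EBPα, which drives the genes of the quiescent, metabolically active hepatocyte (ENSMUSG00000034957, chromosome 7, 35119293 to 35121928, plus strand, a single exon). The 5 DIO livers held 325, 340, 354, 411 and 312 CPM. The GB-IL livers held 88.2, 105, 285 and 296 CPM, so all 4 lay below the lowest DIO liver, a separation seen in either direction in 4.17% of all tested genes and in the lower direction in 1.51%. Livers 1 and 2 were far below livers 3 and 4. The mean was 193 ± 112 CPM (SD, n = 4) in GB-IL against 348 ± 38.5 CPM (SD, n = 5) in DIO, a log2 fold change of -0.85 (SE 0.328, adjusted p = 0.149 by edgeR). Without GB-IL livers 1 and 2 it was -0.28 (adjusted p = 0.859), and without GB-IL liver 4 it was -1.13 (adjusted p = 0.0263). RYGB livers held 323, 306, 261, 289 and 200 CPM, of which 4 lay below every DIO liver, at a log2 fold change of -0.34 (95% interval -0.98 to 0.31).

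Cebpb, whose product C/EBPβ is induced by inflammatory cytokines in liver, ran the other way in the same livers (ENSMUSG00000056501, chromosome 2, 167688915 to 167690418, plus strand, a single exon). It stood at 156, 127, 88.0 and 41.6 CPM in GB-IL livers 1 to 4, at 71.6, 23.2, 56.0, 75.7 and 77.1 CPM in DIO livers 1 to 5, and at 40.8, 26.9, 49.9, 43.6 and 41.5 CPM in RYGB livers 1 to 5. GB-IL livers 1, 2 and 3 lay above every DIO and RYGB liver, whereas GB-IL liver 4 lay within both ranges. Its log2 fold change was 0.76 (SE 0.364, adjusted p = 0.223) against DIO and 1.34 (SE 0.366, adjusted p = 0.0948) against RYGB by edgeR. Without GB-IL liver 4 both passed the FDR, at 1.02 (adjusted p = 0.0352) and 1.60 (adjusted p = 0.00782), and without livers 1 and 2 they were 0.07 and 0.65 (adjusted p = 0.995 and 0.647). Without DIO liver 2, the lowest DIO liver, the value for GB-IL against DIO was 0.56 (adjusted p = 0.348). In the annotation 20.7% of the Cebpb exon bases lie under Tmem189 on the opposite strand, which had 8589 counts over the 14 livers, and whether the counting used strand is not known here.

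Per length of exon, the ratio of Cebpb to Cebpa was 3.09, 2.13, 0.541 and 0.247 in GB-IL livers 1 to 4. It was 0.120 to 0.434 in DIO and 0.154 to 0.364 in RYGB. Cebpb was thus the more abundant of the pair only in GB-IL livers 1 and 2 of the 14 livers. The ratio was chosen after the values of both genes had been seen and is given without a test. Macrophage marker sums were 953 and 1579 CPM in GB-IL livers 1 and 2 and 2755 and 1030 CPM in GB-IL livers 3 and 4, and neutrophil sums were 120, 53.8, 430 and 6.82 CPM in GB-IL livers 1 to 4 against 5.67 to 10.4 CPM in DIO. In RYGB the macrophage sums were 522 to 1303 CPM, highest in liver 1, and the neutrophil sums were 7.55 to 125 CPM, highest in liver 5. The part of these cell types in the Cebpa and Cebpb values was not tested.

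**Figure D3:**
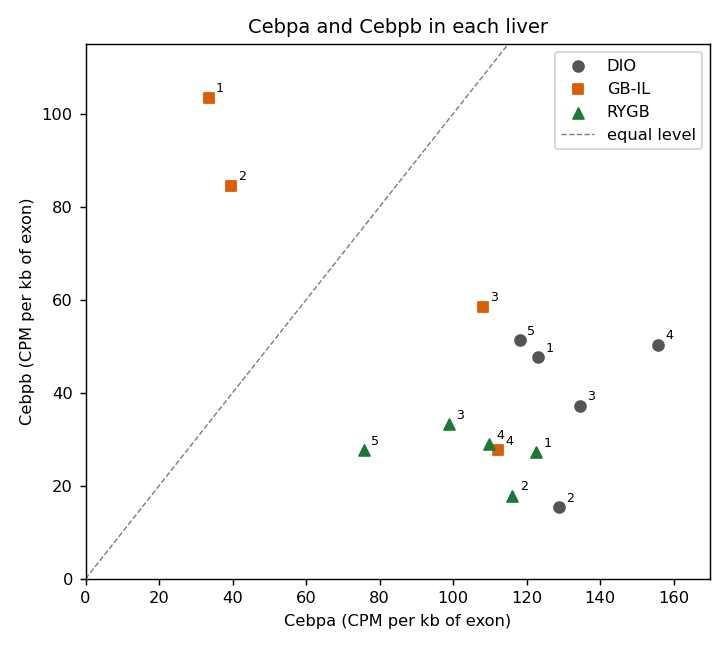
Cebpb against Cebpa in each liver (both axes linear, CPM per kb of exon), with liver numbers beside the points and a dashed line at equal levels. GB-IL livers 1 and 2 lie above the line at ratios of 3.09 and 2.13, and the other 12 livers lie below it.

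Foxa1 and Foxa2 ranked alike over the livers (Spearman 0.69 over 14 livers, 0.44 over the 10 without GB-IL), and Foxa3 did not follow them (-0.03 with Foxa1 and 0.12 with Foxa2 over 14), as a description. Foxa1 (ENSMUSG00000035451, chromosome 12, 57540628 to 57546916, minus strand) stood at 5.62, 7.17, 7.55 and 10.7 CPM in GB-IL livers, against 14.5, 30.2, 9.67, 11.8 and 10.9 CPM in DIO livers and 10.2, 12.8, 12.1, 15.9 and 10.5 CPM in RYGB livers. GB-IL livers 1, 2 and 3 lay below every DIO and RYGB liver, and DIO liver 2 lay far above the rest. The log2 fold change for GB-IL against DIO was -0.99 (SE 0.314, adjusted p = 0.0927 by edgeR), and -0.60 (adjusted p = 0.177) without DIO liver 2. For RYGB against DIO it was -0.32 (95% interval -0.94 to 0.29), and 0.08 without DIO liver 2.

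Foxa2, a regulator of lipid and bile acid genes in the adult liver, had the same order of group means as Foxa1 (ENSMUSG00000037025, chromosome 2, 148042877 to 148046969, minus strand). GB-IL livers 1 to 4 held 6.57, 7.34, 20.0 and 16.0 CPM. DIO livers held 30.9, 43.9, 16.6, 25.6 and 16.4 CPM, and RYGB livers were tightly grouped at 25.5, 20.9, 20.5, 20.6 and 21.9 CPM. All 4 GB-IL livers lay below every RYGB liver, a separation seen in 2.84% of all tested genes in either direction and in 1.57% in the lower direction, whereas GB-IL and DIO overlapped. Fitted by edgeR, it had a log2 fold change of -1.09 (SE 0.348, adjusted p = 0.0927) against DIO and -0.80 (SE 0.345, adjusted p = 0.197) against RYGB. Against DIO it was -0.59 (adjusted p = 0.715) without GB-IL livers 1 and 2. The noncoding gene 9030622O22Rik, next to Foxa2, had a log2 fold change of -0.80 for GB-IL against DIO (adjusted p = 0.358).

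Foxa3, the most abundant of the FOXA genes in liver, stood at 39.2, 121, 54.3 and 42.3 CPM in GB-IL livers, 46.2, 41.1, 33.8, 75.9 and 56.7 CPM in DIO livers and 69.6, 61.8, 63.0, 50.8 and 55.8 CPM in RYGB livers (ENSMUSG00000040891, chromosome 7, 19013284 to 19023538, minus strand). GB-IL liver 2 was the highest of all 14, and the other 3 GB-IL livers lay within the DIO range. Its log2 fold change for GB-IL against DIO was 0.34 (95% interval -0.32 to 1.00, adjusted p = 0.496 by edgeR), and -0.18 without GB-IL liver 2. Of the summed FOXA level per length, Foxa3 made up 81.2% and 91.8% in GB-IL livers 1 and 2, 71.3% and 67.5% in GB-IL livers 3 and 4, 42.2% to 73.2% in DIO and 65.0% to 71.6% in RYGB. The summed level itself was 23.7 to 64.4 CPM per kb in GB-IL, 26.5 to 51.6 in DIO and 38.4 to 48.0 in RYGB, so the groups overlapped in the sum.

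Onecut1, which encodes HNF6, had both the lowest level of the 8 and the largest spread (ENSMUSG00000043013, chromosome 9, 74861921 to 74891781, plus strand). DIO livers 1 to 5 held 5.86, 33.3, 1.78, 4.07 and 2.79 CPM, which were 112, 677, 35, 72 and 58 counts. GB-IL livers held 0.368, 0.565, 2.80 and 1.77 CPM (7, 10, 66 and 48 counts), and RYGB livers held 1.53, 3.45, 1.97, 1.70 and 3.53 CPM. DIO liver 2 stood far above the other 13 livers, and GB-IL livers 1 and 2 far below them. The log2 fold change for GB-IL against DIO was -2.77 (SE 0.836, adjusted p = 0.0803 by edgeR), and -1.40 (adjusted p = 0.198) without DIO liver 2. For RYGB against DIO it was -1.97 (SE 0.737, adjusted p = 0.507), and -0.57 without DIO liver 2. The annotation places 52.8% of the Onecut1 exon bases under the same-strand transcript Gm20649, which had 1 count over the 14 livers.

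DIO liver 2 stood apart in many other genes. It was the highest DIO liver by such a margin in 300 of 12696 genes (2.36%, against 0.0945% to 1.43% for each of the other DIO livers), and the median exon length of those with a known length was 7526 bases, against 4301 bases over all genes. Each gene's log2 level was also taken relative to its median over the DIO livers. The median of these values for long genes minus that for short genes was 0.42 in DIO liver 2, -0.61 in GB-IL liver 2 and 0.46 in RYGB liver 4. With the libraries corrected for gene length, the Onecut1 log2 fold change for GB-IL against DIO was -2.80, and -2.77 without the correction. That of Foxa1 was -1.03, and -0.99 without it. The part of gene length in the levels of DIO liver 2 was not tested.

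Prox1, a homeobox regulator of hepatocyte fate and lipid metabolism, had overlapping groups in all 3 comparisons (ENSMUSG00000010175, chromosome 1, 190118035 to 190170714, minus strand). The GB-IL livers held 61.8, 42.2, 138 and 96.8 CPM, spanning most of the range of the study. DIO livers held 54.2, 109, 80.5, 96.4 and 129 CPM, and RYGB livers held 101, 133, 119, 124 and 110 CPM. GB-IL livers 1, 2 and 4 lay below every RYGB liver, and GB-IL liver 3 was the highest of the 14. Its log2 fold change was -0.15 (95% interval -0.80 to 0.50, adjusted p = 0.781 by edgeR) for GB-IL against DIO and 0.32 (-0.29 to 0.93, adjusted p = 0.783) for RYGB against DIO. In GB-IL relative to RYGB it was -0.47 (-1.12 to 0.19, adjusted p = 0.361). The antisense gene Prox1os overlaps 1.59% of its exon bases.

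GB-IL livers 1 and 2 therefore held the lowest Cebpa, Foxa1, Foxa2 and Onecut1 and the highest Cebpb of the 14 livers. Hnf4a showed no such split, at 764 and 632 CPM in those livers. FOXA, ONECUT and PROX genes and Hnf4a are also known from the pancreas, and the pancreatic acinar sum was 1792 CPM in GB-IL liver 1 and 11.6 CPM in GB-IL liver 2. The part of pancreatic RNA in these levels was not tested.

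The gene lists that follow were also chosen with earlier results known, so their counts beside shares of all tested genes are a description only. Other regulators of the hepatocyte were read from a list of 26 factors, all tested (among them nuclear receptors and GATA, PAR bZIP and NFI factors). For GB-IL against DIO 21 had a lower and 5 a higher mean, with a median log2 fold change of -0.32, and 0 passed the FDR by edgeR. At an unadjusted p below 0.05 there were 5 lower and 1 higher, against 6.43% lower and 16.7% higher of all tested genes. DESeq2, the exact test and voom called 2, 2 and 1, against 9.07%, 7.92% and 4.13% of all tested genes. Gata4, a partner of the FOXA factors in liver development, stood at 12.3, 5.20, 6.23 and 9.63 CPM in GB-IL against 11.4 to 19.3 CPM in DIO, at -0.88 (SE 0.243, adjusted p = 0.0610). Hlf, a clock output factor, had a value of -0.98 (adjusted p = 0.153).

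For RYGB against DIO the same list had a median of -0.17, with 0 past the FDR. At an unadjusted p below 0.05 there were 4 lower and 1 higher, against 3.36% lower and 5.35% higher of all tested genes. DESeq2, the exact test and voom called 0, 0 and 7, against 11.9% of all tested genes by voom. Tef and Creb3l3, a clock output and a fasting factor, had values of -0.93 and -0.59 (adjusted p = 0.508 and 0.530). For GB-IL against RYGB the median was -0.16 with 0 past the FDR. At an unadjusted p below 0.05 there were 5 lower and 3 higher, against 6.77% and 15.3% of all tested genes. The other tools called 3, 2 and 1, against 5.93%, 4.78% and 0.807%. Gata4 was -1.02 (adjusted p = 0.0830), with all 4 GB-IL livers below every RYGB liver (as in 1.57% of all tested genes), and Tbx3, a T-box factor of liver development, was -1.42 (adjusted p = 0.0998).

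Among 22 tested relatives of the 8 (other forkhead, C/EBP, ONECUT, HNF4 and PROX genes), 0 passed the FDR by edgeR in any comparison. At an unadjusted p below 0.05 there were 3 higher and 3 lower for GB-IL against DIO, none for RYGB against DIO, and 2 higher and 1 lower for GB-IL against RYGB. Of all tested genes 16.7% were higher and 6.43% lower, 5.35% and 3.36%, and 15.3% and 6.77%. DESeq2 called 2, 0 and 2 of the relatives, the exact test 1, 0 and 2, and voom 0, 2 and 0. Of all tested genes DESeq2 called 9.07%, 0.681% and 5.93%, the exact test 7.92%, 0.309% and 4.78%, and voom 4.13%, 11.9% and 0.807%. Cebpd, an acute phase relative of Cebpb, stood at 32.4, 39.3, 12.4 and 4.80 CPM in GB-IL livers 1 to 4 against 2.80 to 12.3 CPM in DIO, at a log2 fold change of 1.57 (SE 0.552, adjusted p = 0.118). Foxq1 was -1.46 (adjusted p = 0.0926) and Foxc1, at under 1 CPM in either group mean, was 1.76 (adjusted p = 0.144). For GB-IL against RYGB, Foxo3, a stress and starvation factor, was 0.66 (adjusted p = 0.0976) and Onecut2, the closest relative of Onecut1, was -0.90 (adjusted p = 0.198), both without overlap of the groups, as were 1.27% of all tested genes in the higher and 1.57% in the lower direction.

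Cofactors and upstream regulators (24 tested) also had 0 past the FDR by edgeR in any comparison. For GB-IL against DIO there were 5 higher and 0 lower at an unadjusted p below 0.05, against 16.7% and 6.43% of all tested genes. For RYGB against DIO there were 2 higher, against 5.35%. For GB-IL against RYGB there were 1 higher and 3 lower, against 15.3% and 6.77%. DESeq2 and the exact test each called 2 for GB-IL against DIO, against 9.07% and 7.92% of all tested genes. Neither called any in the other comparisons, and voom called none. Trib3, a stress-induced pseudokinase, was 1.19 (adjusted p = 0.0829) and Prmt1, an arginine methyltransferase, 1.11 (adjusted p = 0.0899) for GB-IL against DIO. Tgfb1, a cytokine that represses hepatocyte genes, stood at 17.1, 16.4, 15.6 and 10.8 CPM in GB-IL, all above DIO (6.69 to 9.82 CPM, a separation upwards seen in 2.67% of all tested genes), at 0.83 (adjusted p = 0.118).

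Among hepatocyte effector genes, the products that the network drives, 1 of 39 tested passed the FDR by edgeR for GB-IL against DIO. Of all tested genes 3.26% passed it. The median log2 fold change of the list was -0.34. At an unadjusted p below 0.05 there were 4 higher and 5 lower, against 16.7% and 6.43% of all tested genes. DESeq2, the exact test and voom called 4, 3 and 2, against 9.07%, 7.92% and 4.13% of all tested genes. Each called at least 1 lower. The gene past the FDR was Fgb, the fibrinogen beta chain and an acute phase gene, with a log2 fold change of 1.57 (SE 0.406, adjusted p = 0.0489). GB-IL livers 1 to 4 held 20858, 9930, 10474 and 2996 CPM of it, against 3184 to 4967 CPM in DIO. GB-IL liver 4 thus lay below every DIO liver. Fgb was no longer past the FDR without any single liver other than GB-IL liver 4. Ttr, the thyroid hormone carrier transthyretin, was -1.20 (adjusted p = 0.0816) and Tat, tyrosine aminotransferase, 1.76 (adjusted p = 0.0829). For RYGB against DIO 0 passed the FDR. At an unadjusted p below 0.05, 4 had a lower mean, against 3.36% of all tested genes. DESeq2, the exact test and voom called 1, 0 and 7, against 0.681%, 0.309% and 11.9% of all tested genes. For GB-IL against RYGB 0 passed, and 3 were higher at an unadjusted p below 0.05, against 15.3% of all tested genes. The other tools called 1, 1 and 0, against 5.93%, 4.78% and 0.807%.

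Of 16 tested fetal and progenitor genes, 5 rose in GB-IL against DIO by edgeR and 0 fell, with a median log2 fold change of 1.80. Of all tested genes 3.15% rose and 0.112% fell. The list was chosen with earlier results of these data known, so its counts beside those shares are a description only. The 5 were Spp1 (osteopontin, 2.36), Krt19 (2.90) and Krt7 (2.44), keratins of the bile duct, the imprinted noncoding RNA H19 (6.35) and the surface proteoglycan Gpc3 (3.13), with adjusted p of 0.0278 to 0.0415. H19 stood at 38.5, 5.99, 50.1 and 0.406 CPM in GB-IL livers 1 to 4 and at 0 to 0.712 CPM in DIO. Krt19 stood at 11.1, 13.7, 3.39 and 1.81 CPM in GB-IL, all above DIO (0.433 to 1.41 CPM). Such a separation upwards was seen in 2.67% of all tested genes. Krt19, Krt7 and Spp1 are also in the cholangiocyte list, whose sum was 342, 283, 237 and 71.1 CPM in GB-IL livers 1 to 4. Spp1 alone made up 286, 216, 205 and 49.5 CPM of that sum. The part of cholangiocytes in these values was not tested. None of the 5 stayed past the FDR without GB-IL liver 1, without GB-IL liver 2 or without any one of the DIO livers. DESeq2 and the exact test each called 8 of the 16, against 9.07% and 7.92% of all tested genes, and voom called 4, against 4.13%. For RYGB against DIO 0 passed by edgeR (median 0.46). At an unadjusted p below 0.05, 1 was higher, against 5.35% of all tested genes. DESeq2, the exact test and voom called 0, 0 and 1, against 0.681%, 0.309% and 11.9%. For GB-IL against RYGB 0 passed (median 1.12, 9 higher and 1 lower at an unadjusted p below 0.05, against 15.3% and 6.77% of all tested genes, and 6, 6 and 1 called by those tools, against 5.93%, 4.78% and 0.807%).

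**Figure D4:**
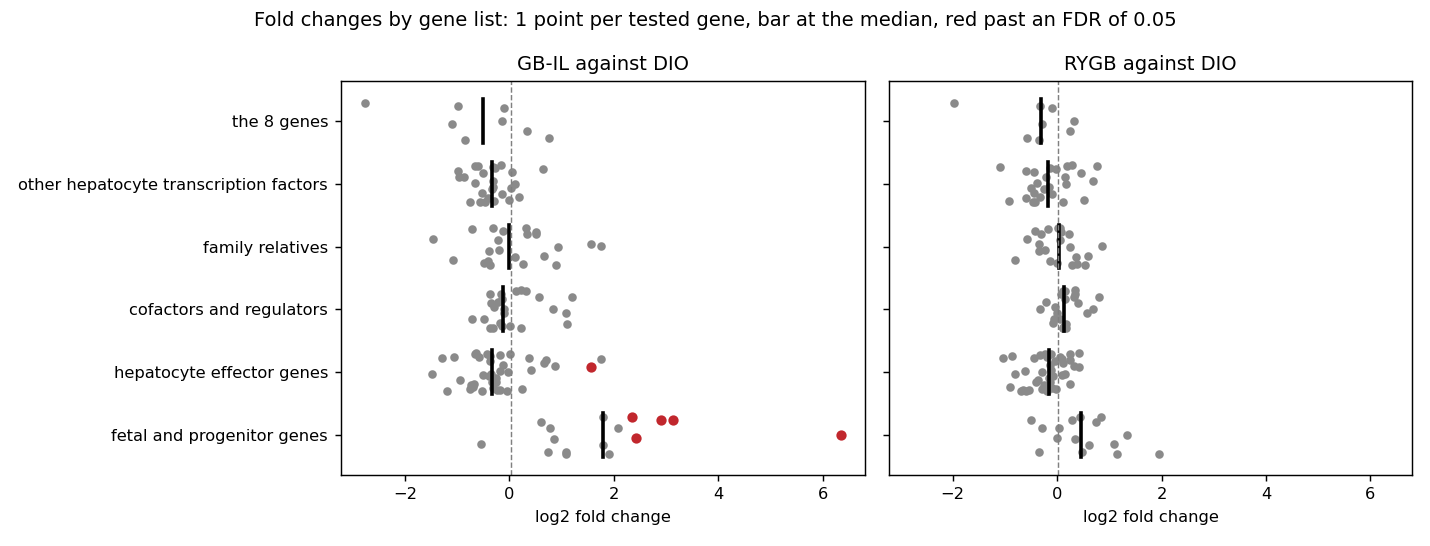
Log2 fold change (horizontal axis) of every tested gene of each list (vertical axis) for GB-IL against DIO and RYGB against DIO, with a bar at the list median, a dashed line at the median of all tested genes and red points past an FDR of 0.05 by edgeR. The 5 fetal and progenitor genes and Fgb are the red points, and the median of the 8 genes is -0.50 on the left and -0.30 on the right.

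The genes whose levels over the 14 livers ranked most like each of the 8 were sought among 12696 genes with a mean of at least 1 CPM, by Spearman correlation, as a description. Cebpa was closest to Hcn3, an ion channel gene (0.96), and to Aifm3 (0.93). Over the 10 livers without GB-IL the first of these was 0.95. Cebpb was closest to the small heat shock gene Hspb8 (0.95) and to Nfkbia, the NF-κB inhibitor (0.94), at 0.88 and 0.93 without GB-IL. Foxa1 was closest to Adal (0.95) and Slc18b1 (0.94), Onecut1 to Mfhas1 (0.93) and Mfsd6 (0.86), and Prox1 to Lrrc3 (0.90) and Tm9sf1 (0.89). Lower values were found for Foxa3 (Rpl7l1 0.84, Fbxo22 0.83), Foxa2 (Rgs3 0.82, Gnas 0.82) and Hnf4a (Serpina3k 0.82, Ddi2 0.80), and Serpina3k belongs to a multicopy family whose counts may be shared. Among the 8 themselves, the highest value was between Foxa2 and Onecut1 (0.75, and 0.64 without GB-IL) and the lowest between Foxa2 and Cebpb (-0.60, and -0.38 without GB-IL). The livers share library depth and base composition within each point, and the values carry no test.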

How the data were processed

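Total RNA of each liver was amplified and sequenced, 1 library per mouse; the labels name 2 stranded library kits without assigning livers, so no kit term could be fitted. The deposited values are whole counts per gene, made by the authors with TopHat2 (mm10) and HTSeq, with versions, annotation and strand handling not given in the sources used here. Of 25212 genes, 577 had no count. The analysis used edgeR 4.0.16 (filterByExpr, TMM, 1 quasi-likelihood fit of 14 livers and 3 groups, Benjamini-Hochberg, FDR of 0.05), DESeq2 1.42.0 and limma 3.58.1 under R 4.3.3, and Python 3.11.15. Exon lengths are from GENCODE M21, which matched 24701 identifiers. Per list, the 3 genes with the smallest p and, up to 6, those past the FDR were eligible to be named, and per member the 2 genes most like it; the results of some of these genes are not reported here. The members and lists were chosen with earlier results of these data known. On simulated counts, edgeR's quasi-likelihood test recovered 163 of 200 genes changed by a log2 fold of 2 for GB-IL against DIO, with 4 false calls. DESeq2, the exact test and voom recovered 177, 177 and 156, with 26, 18 and 6 false calls. Each simulated group had 1 mean per gene and no split among its livers, unlike GB-IL here. Smaller changes were not simulated. Alternatives were other scalings, tests, filters, a replicate block and leaving out livers; 2 were chosen after seeing the data.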

Additional observations from a re-analysis of the deposited data

Results flagged for a closer look

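Within each group of 4 or 5 livers, the gap of the highest or lowest liver to its neighbour was set against the range of the group. Chance gives about 1 in 20 for normally distributed values, whereas these were CPM without log transformation. The groups of values also share livers, so that rate is only a guide. Of 54 groups of values examined 7 stood out, each by its highest liver. For the genes themselves these were Foxa1 in DIO liver 2 (30.2 CPM), Onecut1 in DIO liver 2 (33.3 CPM) and Foxa2 in RYGB liver 1 (25.5 CPM). For the marker sums they were the stellate cell genes in GB-IL liver 1 (965 CPM) and RYGB liver 5 (696 CPM), the neutrophil genes in RYGB liver 5 (125 CPM) and the pancreatic acinar genes in GB-IL liver 1 (1792 CPM). Onecut1 and Foxa1 both rested on DIO liver 2 in RYGB against DIO, where their log2 fold changes were -0.57 and 0.08 without it.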

How the results depend on the processing

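Of 672 values of single genes over 28 alternatives, 630 kept their direction and their side of the threshold, 17 came past the FDR and 25 turned sign. Without any single liver, the count of the 8 genes past the FDR ran from 0 to 5 for GB-IL against DIO (5 without GB-IL liver 4, among 24.6% of all tested genes, and 1, Foxa2, without GB-IL liver 3, among 3.99%), from 0 to 1 for GB-IL against RYGB (1, Cebpb, without GB-IL liver 4, among 21.5%) and was 0 for RYGB against DIO. It was 3 for GB-IL against DIO with DESeq2 and with the exact test, 1 for GB-IL against RYGB with either and with libraries scaled by the hepatocyte list (5.02% of all), and 1 for RYGB against DIO with voom. The scaling by the hepatocyte list moved the median of all genes by 0.22, 0.07 and 0.16 in the 3 comparisons. The cause of these shifts was not tested.

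Signs turned as follows. For Hnf4a, GB-IL against RYGB was 0.0026 with RLE and with DESeq2, 0.0060 with upper quartile, 0.14 with hepatocyte list scaling, 0.013 with the replicate block, 0.019 with the length correction and -0.10 to 0.11 without single livers, and GB-IL against DIO was 0.14 with hepatocyte list scaling. For Prox1, GB-IL against DIO was 0.12 with that scaling, -0.49 to 0.059 without single livers and 0.30 without GB-IL livers 1 and 2. For Foxa3, GB-IL against RYGB was -0.049 with total counts, -0.052 with voom, -0.088 with the length correction, -0.43 to 0.26 without single livers and -0.34 without GB-IL livers 1 and 2, and GB-IL against DIO was -0.18 to 0.53 without single livers and -0.094 without both. RYGB against DIO was 0.094 for Foxa1 and 0.0077 for Foxa2 with voom, and -0.45 to 0.078 for Foxa1 without single livers. Cebpa in GB-IL against RYGB was 0.054 without GB-IL livers 1 and 2.

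Of 13 pairs of livers with the same number in different groups, 2 correlated above 0.1, the highest at 0.405. Of the 14 livers, 1 was closest to its own number. These correlations showed no general pairing by number, but at 4 to 5 livers a group they cannot exclude one. With the replicate block, 0 of the 8 genes passed the FDR in each comparison, and the count of genes past it for GB-IL against DIO went from 465 to 1. Onecut1 in GB-IL livers 1 and 2 rested on 7 and 10 counts, and at 4 to 5 livers a group the intervals left room for sizeable differences in every gene.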
